A study of Rattus norvegicus with 8 samples.

Results

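Serpins, cystatins, Kazal-type, Kunitz-type and WAP-type inhibitors, inter-alpha-trypsin inhibitor heavy chains and alpha-2-macroglobulin were followed in rat enamel organs as the tissue moved from the secretory to the maturation stage. They were picked by gene symbol in the array annotation. The rule uses no measured value, but it was chosen with earlier results of these data known. The rule took 66 of 22523 probes, for 60 of 21557 symbols. Non-inhibitory Serpinh1, a collagen chaperone, was left out of the rule.

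The enamel organ is the epithelial tissue that makes enamel. In the secretory stage its ameloblasts lay down a matrix of enamel proteins, and in the maturation stage they remove that matrix with proteases while the mineral grows. Each of 4 male Wistar Hannover rats (Wistar in the labels), aged 4 weeks and untreated as far as the labels tell, gave a secretory-stage and a maturation-stage sample from its mandibular incisors, so both stages share strain, age and animal. The mandibles were frozen and freeze-dried, and the soft layer over each enamel zone was collected, which holds ameloblasts together with the other cells of the enamel organ and of tissue that adheres to it. Each sample was hybridized as biotin-labelled cRNA to an Illumina RatRef BeadChip, which reads a transcript with many beads that carry the same probe.

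Protease inhibitors set how far a protease can act. A serpin offers a bait loop to a serine protease and traps it in a covalent complex. Cystatins plug the active site of papain-like cysteine proteases, the cathepsins. Kazal, Kunitz and WAP domains are small disulfide-bonded folds that block serine proteases reversibly, and alpha-2-macroglobulin encloses proteases of any class in a cage. Proteolysis is central to enamel: MMP20 trims the matrix in the secretory stage and KLK4 degrades it in the maturation stage.

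The labels fitted the ameloblast genes. The matrix gene Enam read 11.94 to 12.03 on the secretory arrays and 9.08, 5.17, 5.53 and 8.22 on maturation arrays 1 to 4, so that arrays 1 and 4 held more of it than arrays 2 and 3. Of 5 probes for secretory-stage genes, 3 were lower in the maturation stage by at least 1.8-fold, among them Mmp20 by a log2 difference of -4.03. Amelx and Ambn differed by only -0.53 and -0.36. Of 7 probes for maturation-stage genes, 6 were higher, the 2 Klk4 probes among them. All 8 arrays correlated best with arrays of their own stage, although for maturation replicates 2 to 4 the source field reads secretory, against their titles, descriptions and tissue entries. The maturation-stage arrays detected 11164 to 11450 probes and the secretory-stage arrays 10667 to 10941, detection being a detection p below 0.05 against the negative-control beads. Levels are normalized log2 signals, and a log2 fold change is the maturation-stage mean minus the secretory-stage mean (n = 4 per stage). A probe counted as differentially expressed at an adjusted p below 0.05 (limma, Benjamini-Hochberg over all probes) and a change of at least 1.8-fold. A level of one probe cannot be set against that of another, because probes differ in how brightly they report.

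Of the 66 inhibitor probes, 31 were detected on all 4 arrays of at least 1 stage, 7 on fewer arrays and 28 on none. In limma's fit 9 probes were differentially expressed and higher in the maturation stage, against 4.6% of all probes on the array, and 0 were lower, against 3.15%. At an unadjusted p below 0.05 there were 20 inhibitor probes higher (15.9% of all probes) and 10 lower (18.3% of all probes), and the test named in the methods gave 9 higher and 0 lower at the same thresholds. With the fold threshold dropped, 15 probes were higher (12.8% of all probes) and 7 lower (14% of all probes) at the same adjusted p. The median log2 fold change, undetected probes included, was 0.02 over the inhibitors and -0.01 over all probes. Among probes detected on at least 4 arrays it was 0.43 over the inhibitors and -0.05 over all probes. That filter also takes in probes through the stage in which they are higher. A few rises were large and the falls were small. Every one of these 22 probes had the same sign in the 16 alternative fits, and 16 kept an adjusted p below 0.05 in each of them.

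**Figure D1:**
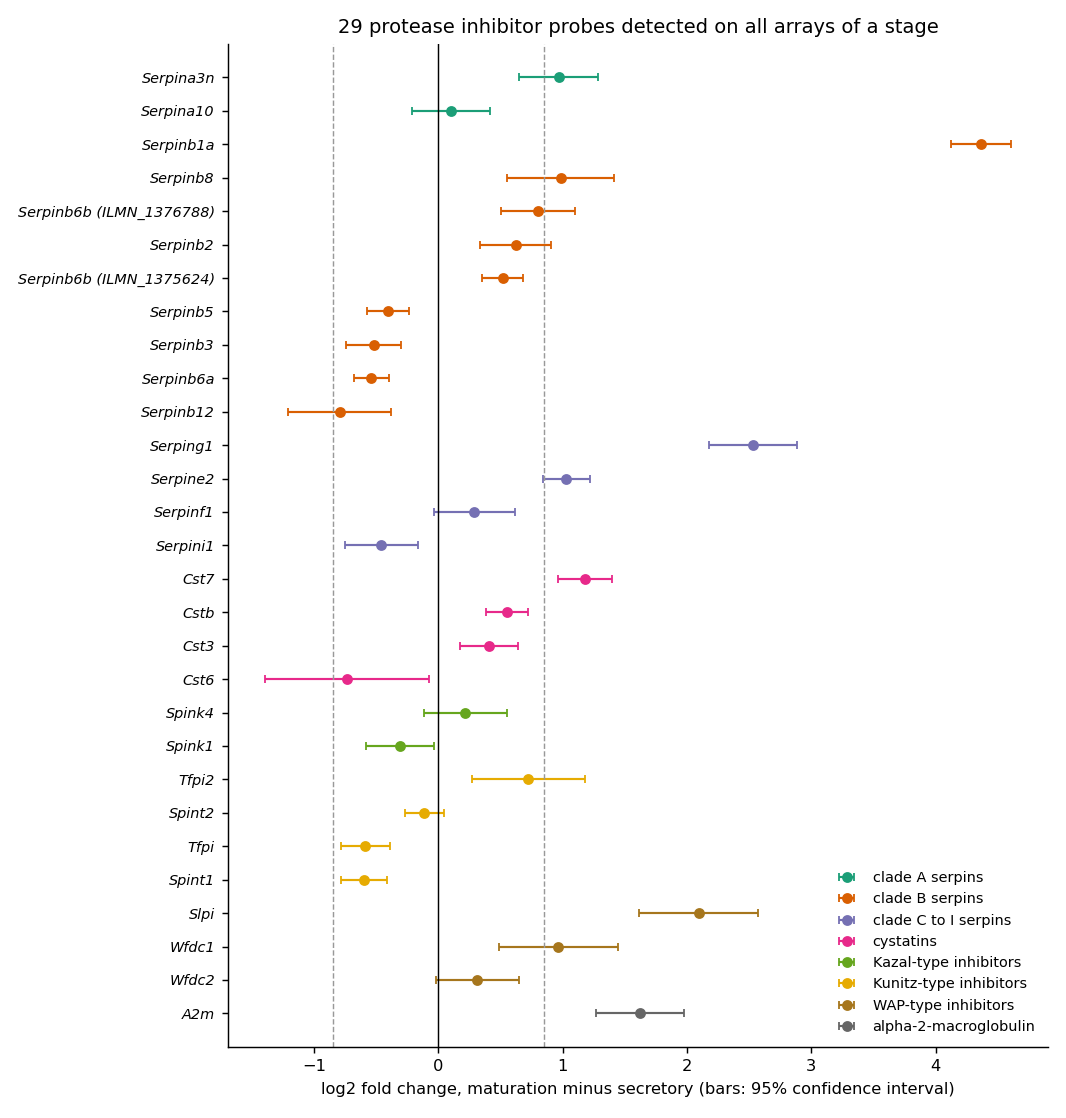
Log2 fold change (maturation minus secretory) of 29 of the 31 inhibitor probes detected on all arrays of a stage, by family, with 95% confidence intervals from limma (n = 4 per stage) and dashed lines at 1.8-fold. Serpinb1a stands at 4.37, apart from the other probes, and the probes on the left of 0 lie within 1.8-fold of it.

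The widest change was that of Serpinb1a (chromosome 17), a cytosolic clade B serpin that inhibits elastase-like and chymotrypsin-like proteases of neutrophils and also guards cells from proteases that leak inside. Its normalized signal was 12.43, 12.65, 12.68 and 12.67 on maturation arrays 1 to 4 and 8.48, 8.03, 8.10 and 8.35 on secretory arrays 1 to 4. The stages were far apart on every array, and the maturation-stage values lay close together. The log2 fold change was 4.37 (SE 0.107), or 20.6-fold (adjusted p = 1.86e-08, limma). Ordered by log2 fold change, the probe held rank 20 of 22523. Each rat showed it, with maturation minus secretory differences of 3.96, 4.61, 4.58 and 4.31 in rats 1 to 4. The neutrophil proteases that Serpinb1a is known to inhibit were barely seen: the probes of Ctsg (cathepsin G) and Ela2 (neutrophil elastase) were not detected on any array, and Prtn3 (proteinase 3) had a log2 fold change of 0.04 (95% interval -0.344 to 0.417).

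**Figure D2:**
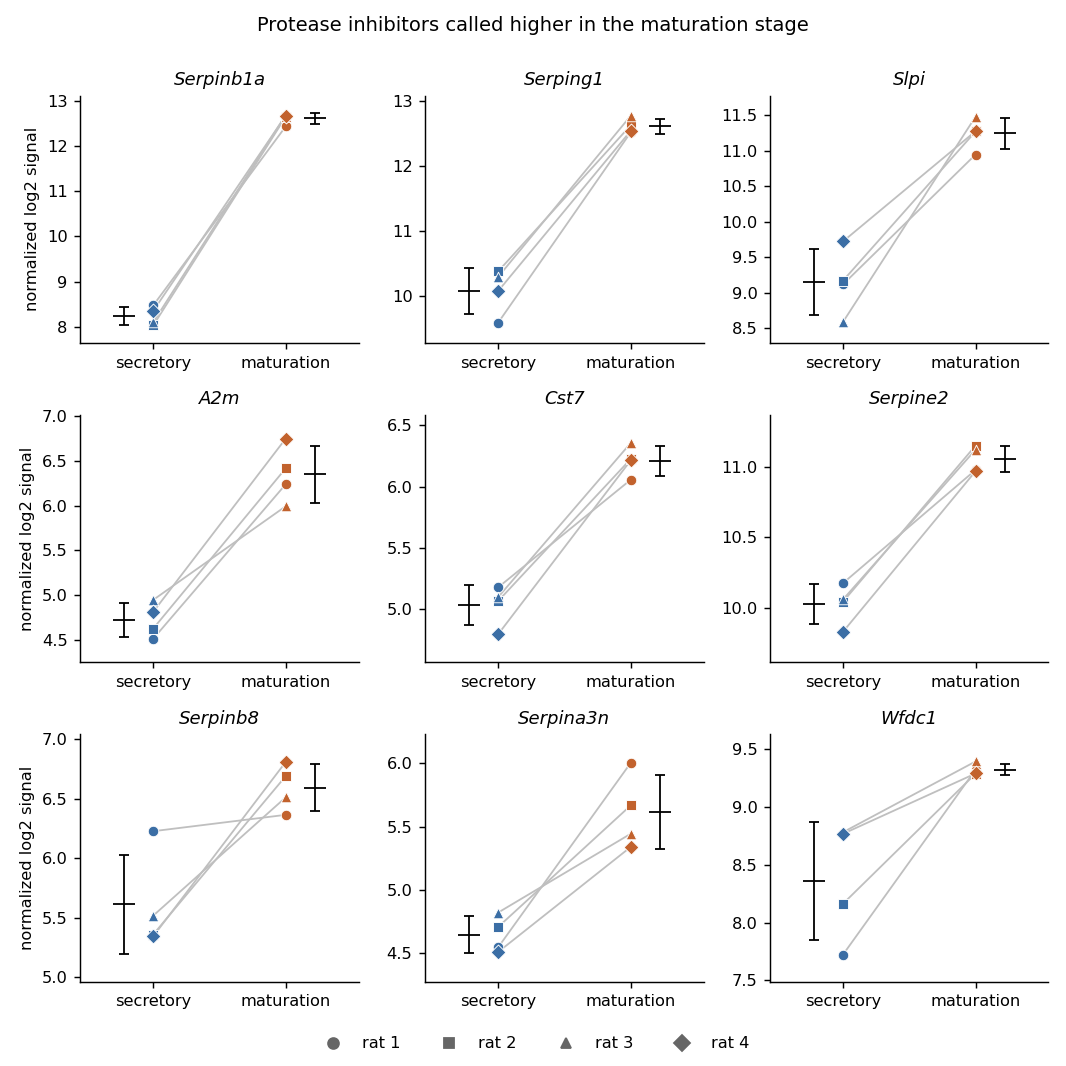
Normalized log2 signal on each array for the 9 differentially expressed inhibitors, with grey lines joining the samples of a rat and black bars for the mean ± SD of each stage (n = 4), each panel on its own scale. No maturation-stage value reaches down into the secretory range, and the step in Serpinb8 is least in rat 1 (0.14).

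Among the other intracellular clade B serpins, the stages differed in both directions. Of 14 clade B probes, Serpinb1a included, 9 were detected on all arrays of a stage. Of the 14, 5 with Serpinb1a among them were higher (12.8% of all probes) and 4 lower (14% of all probes) at an adjusted p below 0.05. Serpinb8, an inhibitor of furin-like proprotein convertases, read 6.37, 6.69, 6.51 and 6.81 on the maturation arrays and 6.23, 5.36, 5.52 and 5.34 on the secretory arrays. Secretory array 1 was the high one, which brought the stages close without overlap. Its log2 fold change was 0.98 (SE 0.192; adjusted p = 0.00357, limma), and it fell below 1.8-fold with normexp without negative controls (0.79), without background correction (0.42) and with an offset of 50 (0.65). Serpinb6b, close in sequence to inhibitors of trypsin-like proteases and cathepsin G, has 2 probes, and both were higher. Probe ILMN_1376788 changed by 0.80 (adjusted p = 0.00126, limma) and probe ILMN_1375624 by 0.52 (adjusted p = 0.000493, limma). Its relatives lie next to it in the genome and are alike in sequence, so signal from a paralog on these probes cannot be told apart here. Serpinb2, plasminogen activator inhibitor 2, rose by 0.62 (adjusted p = 0.00439, limma), from detection on 2 secretory arrays to all 4 maturation arrays.

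Most of the clade B serpins that fell are known from epithelia, and each fell by less than 1.8-fold. Serpinb12, an inhibitor of trypsin-like proteases in surface epithelia, read 8.27, 7.82, 7.78 and 8.37 on the maturation arrays and 8.79, 8.58, 8.73 and 9.32 on the secretory arrays. The ranges did not meet, and maturation arrays 1 and 4, on which Enam was also higher, read above arrays 2 and 3. The log2 fold change was -0.80 (SE 0.183; adjusted p = 0.00907, limma). It was -0.87 without maturation array 1, -0.89 without array 4 and -0.89 without secretory array 2, each past 1.8-fold. Serpinb6a, an inhibitor of trypsin-like proteases and cathepsin G, stood at 11.90, 11.82, 11.77 and 11.77 in the maturation stage and at 12.45, 12.28, 12.29 and 12.40 in the secretory stage. The arrays of a stage agreed closely, so that a log2 fold change of only -0.54 had an SE of 0.0626 (adjusted p = 0.00014, limma). Serpinb5 (maspin), which does not inhibit proteases and is known from mammary epithelium, fell by 0.41 (adjusted p = 0.00235, limma). Across the alternative fits its change was as small as -0.06, and under median scaling its adjusted p was 0.606 (limma). Serpinb3, a squamous-cell serpin that blocks cysteine cathepsins, fell by 0.52 (adjusted p = 0.00311, limma). Serpinb3 was detected on all 4 secretory arrays but on 1 maturation array.

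These genes lie in clusters. In the gene order of the RefSeq assembly GRCr8, the chromosome 13 cluster runs Serpinb5, Serpinb12, Serpinb13, Serpinb3a, Serpinb3, Serpinb11, Serpinb7, Serpinb2, Serpinb10 and Serpinb8. The 3 genes that fell lay in the first part of this order and the 2 that rose in the last. Serpinb13, Serpinb7 and Serpinb10 were not detected on any array, Serpinb11 was detected on 1, and Serpinb3a had no probe among those selected. On chromosome 17 the order begins with Serpinb6a, which fell, and ends with Serpinb6b and Serpinb1a, which rose, while 5 of the 9 genes had no probe among those selected. The probe named Serpinb9e, now Serpinb9d, lies between them and was detected on 3 arrays (log2 fold change 0.20, 95% interval -0.238 to 0.636). This order is a description of 19 genes in 2 clusters and was not tested.

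**Figure D3:**
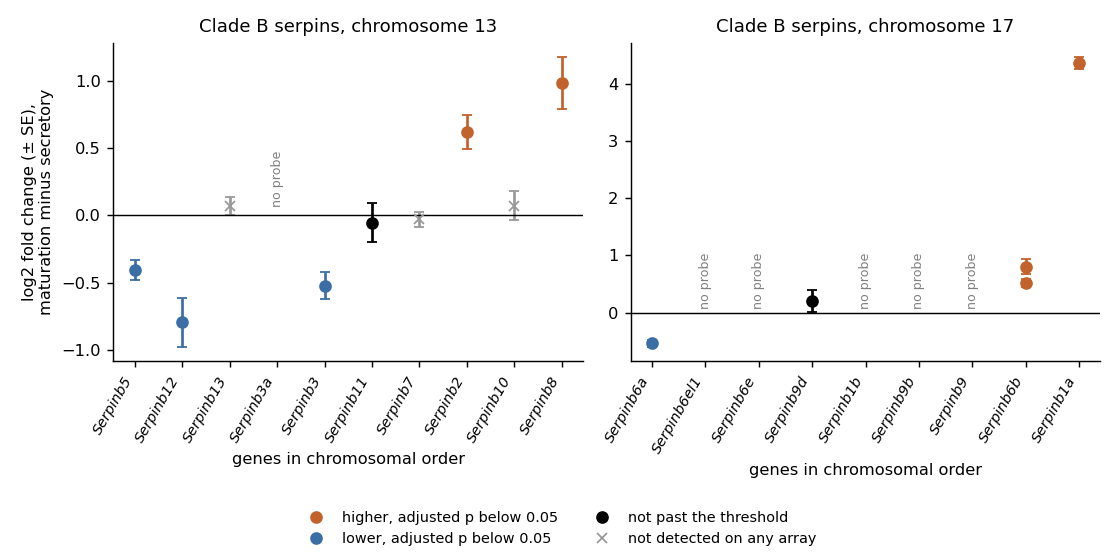
Log2 fold change ± SE of clade B serpin probes against gene order on chromosomes 13 and 17 (rank in order, not distance), with crosses for probes not detected on any array. On chromosome 13 the lower genes (-0.80 to -0.41) come before the higher ones (0.62 and 0.98), and on chromosome 17 Serpinb1a (4.37) comes last.

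The secreted serpins outside clade B were led by Serping1 (chromosome 3), the C1 inhibitor, which blocks the complement proteases C1r and C1s, plasma kallikrein and factor XIIa. Its signal was 12.52, 12.63, 12.78 and 12.54 on the maturation arrays and 9.59, 10.38, 10.30 and 10.08 on the secretory arrays. Secretory array 1 was the low one, and every maturation array was well above every secretory array. The log2 fold change was 2.53 (SE 0.157), or 5.78-fold (adjusted p = 2.48e-06, limma). Serpine2, protease nexin-1, inhibits thrombin, urokinase and tissue plasminogen activator at the cell surface. It read 10.98, 11.15, 11.12 and 10.97 in the maturation stage and 10.17, 10.04, 10.06 and 9.83 in the secretory stage. The arrays of a stage agreed closely and the stages did not overlap, with a log2 fold change of 1.03 (SE 0.0838; adjusted p = 1.45e-05, limma).

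Other secreted serpins moved less. Serpini1 (neuroserpin, an inhibitor of tissue plasminogen activator) had a log2 fold change of -0.46 (adjusted p = 0.0249, limma). Its stages overlapped, with an exact two-sided permutation p of 0.0571, and it lost the adjusted threshold when maturation array 2 or secretory array 1, 2 or 4 was left out (adjusted p 0.0524 to 0.0669). Serpinf1, the non-inhibitory pigment epithelium-derived factor, differed by 0.29 (adjusted p = 0.203, limma). Antithrombin (Serpinc1, 2 probes), heparin cofactor II (Serpind1), pancpin (Serpini2) and 1 of 2 Serpinf2 probes were not detected on any array. The other Serpinf2 probe, for alpha-2-antiplasmin, was detected on 4 arrays at a log2 fold change of 0.07.

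Clade A holds the plasma serpins that the liver makes, and most of them were not detected in the enamel organ. Of 12 clade A probes, 9 were not detected on any array: Serpina3k (now Serpina3c), Serpina3m, Serpina4, Serpina5, Serpina6 (2 probes), Serpina7, Serpina9 and Serpina12. Serpina1, alpha-1-antitrypsin, was detected on 3 arrays, with a log2 fold change of 0.00 (95% interval -0.323 to 0.326). The exception was Serpina3n, an inhibitor of granzyme B and of chymotrypsin-like proteases that many cells make in acute inflammation. It read 6.0, 5.67, 5.44 and 5.34 on the maturation arrays, where it was detected throughout, and 4.55, 4.71, 4.82 and 4.51 on the secretory arrays, where it was detected on none. The probe went from undetected to detected, and its secretory values give no level. The fitted log2 fold change was 0.97 (SE 0.14; adjusted p = 0.000583, limma), and set against the lowest detected signals the change was at least 1.48-fold, which is under the threshold of 1.8. The fitted value was 0.81 without maturation array 1, 0.35 without background correction and 0.49 with an offset of 50, none of which counted as differentially expressed. Serpina10, the inhibitor of factor Xa that works with protein Z, was detected on all 8 arrays and differed by 0.10 (95% interval -0.214 to 0.418).

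Cystatins rose, where they passed the test. Cst7 (cystatin F), kept in the lysosomes of immune cells where it restrains cathepsin C, read 6.06, 6.22, 6.36 and 6.21 in the maturation stage. On the secretory arrays it read 5.18, 5.07, 5.10 and 4.79 and was not detected on array 4. The stages were clear of each other, with a log2 fold change of 1.18 (SE 0.0957; adjusted p = 1.4e-05, limma). It was 0.43 without background correction and 0.69 with an offset of 50, both below 1.8-fold. The abundant cytosolic inhibitor Cstb (stefin B) rose by 0.55 (SE 0.0742; adjusted p = 0.000361, limma) and the secreted Cst3 (cystatin C) by 0.41 (SE 0.104; adjusted p = 0.0149, limma), both under 1.8-fold. Cst3 read 13.66 on maturation array 1 and between 13.27 and 13.33 on the others.

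Cst6, cystatin M/E of surface epithelia and the best known inhibitor of legumain, went the other way without passing the test. It read 10.20, 10.55, 9.80 and 10.04 in the maturation stage and 11.64, 10.20, 10.54 and 11.16 in the secretory stage. Secretory arrays 1 and 4 were high and arrays 2 and 3 lay inside the maturation range. The log2 fold change was -0.74 (95% interval -1.4 to -0.0783; adjusted p = 0.102, limma), and without secretory array 2 it was -0.96 (adjusted p = 0.0254), which counted as differentially expressed. Cst9 (now Cst9l) was detected on 2 maturation arrays (0.70, adjusted p = 0.0601, limma), and Cst8, Cst10 (now Cst5), Cst11 and Csta on none.

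Among the WAP-type inhibitors, Slpi had the third largest change of all the inhibitors. Secretory leukocyte protease inhibitor coats mucosal surfaces and blocks elastase, cathepsin G and chymase. Its signal was 10.95, 11.27, 11.48 and 11.28 on the maturation arrays and 9.12, 9.17, 8.59 and 9.72 on the secretory arrays. Secretory arrays 3 and 4 were the low and the high end of their stage, and all of them lay below the maturation arrays. The log2 fold change was 2.09 (SE 0.212), or 4.27-fold (adjusted p = 5.86e-05, limma). Wfdc2, the next WAP gene along chromosome 3, differed by 0.31 (95% interval -0.0211 to 0.646; adjusted p = 0.175). Wfdc1 (ps20), a secreted WAP protein known as a growth regulator in stroma, read 9.32, 9.29, 9.39 and 9.29 in the maturation stage against 7.72, 8.16, 8.78 and 8.77 in the secretory stage. The maturation arrays were almost level and secretory array 1 was low. The log2 fold change was 0.97 (SE 0.213; adjusted p = 0.00722, limma), and 0.75 without secretory array 1 and 0.79 without background correction, which are below 1.8-fold. Expi (now Wfdc18) was not detected on any array.

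A2m, alpha-2-macroglobulin, was detected on every maturation array at 6.24, 6.42, 5.99 and 6.75. On the secretory arrays, where it was detected on none, the probe read 4.51, 4.63, 4.95 and 4.81. The fitted log2 fold change was 1.62 (adjusted p = 4.32e-05, limma), and the change was at least 2.47-fold. Without background correction it was 0.62, below 1.8-fold. Of the inter-alpha-trypsin inhibitor heavy chain genes, Itih3 and Itih4 were not detected and Itih1 was detected on 1 array.

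Kunitz-type inhibitors gave no differentially expressed probe, but of 4 probes 1 was higher (12.8% of all probes) and 2 were lower (14% of all probes) at an adjusted p below 0.05, each by less than 1.8-fold. Spint1 (HAI-1), the membrane inhibitor of matriptase and hepsin, read 8.61, 8.84, 8.96 and 8.71 in the maturation stage and 9.39, 9.28, 9.40 and 9.43 in the secretory stage. Every secretory array was above every maturation array, and the log2 fold change was -0.60 (SE 0.0817; adjusted p = 0.000408, limma). Spint2 (HAI-2), its close relative, did not pass (-0.11, 95% interval -0.273 to 0.0484). The targets of both did not pass either: St14 (matriptase) differed by 0.15 (adjusted p = 0.403), Prss8 (prostasin) by -0.07 (adjusted p = 0.796) and Hpn (hepsin) by -0.08 (adjusted p = 0.651) in limma's fit.

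The coagulation inhibitors of the Kunitz family split. Tfpi, which blocks factor Xa and the tissue factor complex, read 8.43, 8.28, 8.37 and 8.37 in the maturation stage and 8.83, 8.78, 9.03 and 9.16 in the secretory stage. It fell by 0.59 (SE 0.0886; adjusted p = 0.000752, limma) with no overlap. Across the alternative fits its change was as small as -0.23, and under median scaling its adjusted p was 0.0691 (limma). Tfpi2, a matrix-bound inhibitor of plasmin, read 6.27, 6.37, 6.26 and 6.43 against 4.98, 5.57, 5.76 and 6.13. Its maturation arrays were level and its secretory arrays widely spread, and it was not detected on secretory array 1, the lowest. The log2 fold change of 0.72 had an adjusted p of 0.0236 (limma). Leaving out maturation array 2 or 4 or secretory array 2 took it over the threshold (adjusted p 0.0557, 0.0637 and 0.056), and without secretory array 4 the value was 0.91, past 1.8-fold. F3, tissue factor itself, rose by 0.65 (adjusted p = 5.47e-05, limma).

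Kazal-type inhibitors showed no probe past the adjusted threshold. Spink1, the trypsin inhibitor of pancreas, differed by -0.31 (adjusted p = 0.0949, limma) and Spink4 by 0.22 (adjusted p = 0.375). Spink5 (LEKTI), the inhibitor of epidermal kallikreins, was detected on 1 array by 1 of its 2 probes. Klk4, the kallikrein of this stage, rose by 7.57 on the more changed of its 2 probes (adjusted p = 4.79e-08, limma). Spink2, Spink3 (now Spink1l) and Spink5l2 (now Spink14) were not detected.

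Serine proteases were counted from a list of 31 probes, 19 of them detected on at least 1 array. The list also holds F3, which is a cofactor and not a protease, and it leaves out Klk4. In the maturation stage 6 were differentially expressed and higher (4.6% of all probes) and 1 was lower (3.15% of all probes). Plau (urokinase) read 6.61, 7.13, 6.87 and 6.65 in the maturation stage and 4.61, 5.60, 4.87 and 4.91 in the secretory stage. Plau was detected on only 1 secretory array, so its fitted rise of 1.82 (adjusted p = 0.000101, limma) rests on secretory values mostly below detection. Plat (tissue plasminogen activator) rose by 1.58 (adjusted p = 2.45e-06, limma). Both are targets of Serpine2, as is thrombin. C1r rose by 1.19 (adjusted p = 0.000338, limma) beside Serping1, while C1s differed by -0.19 (95% interval -0.429 to 0.0405). Klkb1 (plasma kallikrein) and F12, the other targets of Serping1, were not detected on any array. Htra1, a secreted protease of matrix, rose by 1.34 and Gzmb, granzyme B of cytotoxic lymphocytes, by 1.09. Gzmb, too, was detected on only 1 secretory array. Cma1, mast cell chymase, was detected in the maturation stage alone, where it was at least 4.36-fold higher. F2, prothrombin, the precursor of thrombin, was detected in the secretory stage alone and was at least 2.72-fold lower in the maturation stage.

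The cathepsins include the cysteine proteases that cystatins inhibit and the aspartic proteases Ctsd and Ctse, which they do not. On the list of 11 probes for cysteine and aspartic cathepsins and legumain, the 10 that were detected were all higher at an adjusted p below 0.05, a call made for 12.8% of all probes, and 4 of them passed 1.8-fold. Lgmn (legumain), the target of Cst6, read 10.76, 10.73, 10.60 and 10.80 in the maturation stage and 8.45, 8.41, 8.58 and 8.75 in the secretory stage. It rose by 2.17 (adjusted p = 1.66e-07, limma). Ctsk, the collagen-degrading cathepsin of osteoclasts, rose by 1.13 and Ctss, of antigen-presenting cells, by 0.95. Ctsw, of cytotoxic lymphocytes, was at least 2.47-fold higher. Ctsb, Ctsc, Ctsd, Ctse, Ctsh and Ctsl rose by 0.32 to 0.70. The Ctsc probe, for the enzyme that Cst7 restrains, rose by 0.60 (adjusted p = 0.000142, limma).

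**Figure D4:**
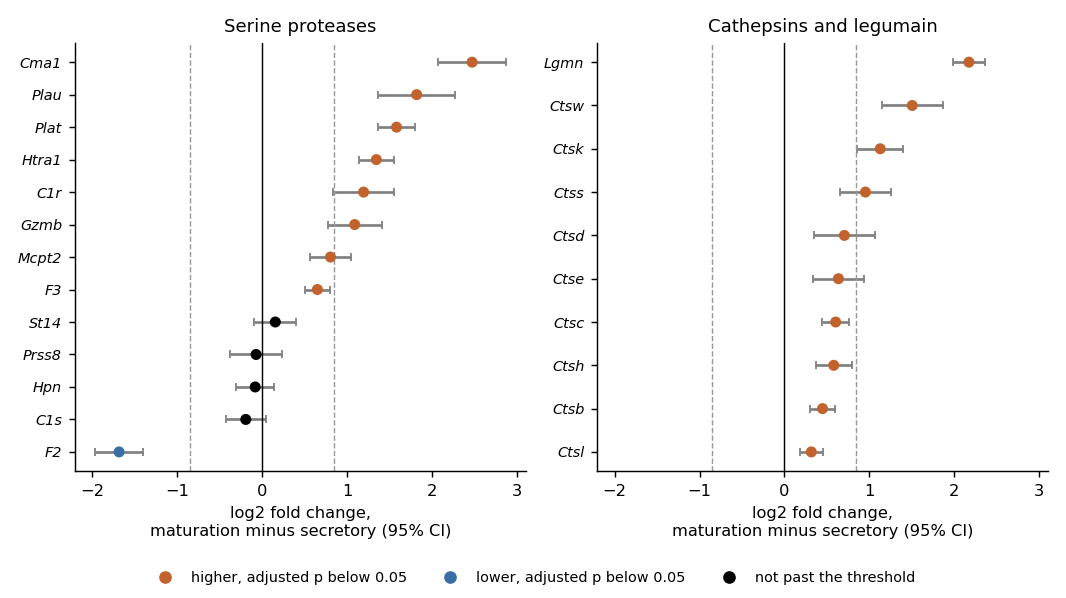
Log2 fold change (maturation minus secretory) with 95% confidence intervals of the serine protease and cathepsin probes detected on all arrays of a stage, with dashed lines at 1.8-fold. The serine protease panel also holds F3, a cofactor, and leaves out Klk4. Cathepsins all lie to the right of 0 (0.32 to 2.17), and F2 is the serine protease on the far left.

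Cell-surface partners of these inhibitors were read by 8 probes, of which 2 were differentially expressed and higher (4.6% of all probes) and 0 lower (3.15% of all probes) in limma's fit. Procr, the receptor of protein C, rose 3.48-fold (adjusted p = 3.55e-05, limma) and Thbd, thrombomodulin, rose 2.02-fold (adjusted p = 0.000212, limma). Lrp1, the endocytic receptor that clears serpin and alpha-2-macroglobulin complexes, rose by 0.65, and Vtn, vitronectin, an adhesive protein of plasma and matrix, by 0.57. Of 25 probes for inhibitors outside the rule, 2 were higher (4.6% of all probes) and 2 lower (3.15% of all probes) past both thresholds. Fetub, fetuin-B, an inhibitor of astacin-type metalloproteases, read 7.95, 7.83, 7.40 and 7.29 in the maturation stage and 11.64, 10.72, 11.27 and 10.63 in the secretory stage, and fell by 3.45 (adjusted p = 4.7e-06, limma). Papln, which carries Kunitz and WAP domains, fell by 2.72 (adjusted p = 0.00219, limma) with maturation values from 5.34 to 7.89. These 2 probes fell further than any probe of the rule. Aplp2, with a Kunitz domain, rose by 0.92 and Lxn, latexin, an inhibitor of carboxypeptidases, by 0.86.

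Markers of other cell types also differed between the stages. Of 16 leukocyte and macrophage probes, 12 were differentially expressed and higher (4.6% of all probes) and 0 lower (3.15% of all probes). Cd68 rose by 2.19 and Cd14 by 1.94. The signal summed over the list ran from 13578 to 17346 in the maturation stage and from 5307 to 6532 in the secretory stage. The osteoclast list summed to 14996 to 19283 against 5981 to 8536, with Calcr undetected. The odontoblast and osteoblast list summed to 38014 to 41468 against 14217 to 31342, lowest on secretory array 1. Among the secretory arrays, array 1 had the lowest sum in all 9 marker lists other than those of ameloblasts. Serping1, Wfdc1 and A2m were also lowest on this array, though A2m was not detected on any secretory array. Of the other inhibitors called, Serpinb1a, Serpinb8, Serpine2 and Cst7 were highest on it within the stage. In the odontoblast and osteoblast list, only Spp1 and Ibsp of the 9 probes were differentially expressed, both higher (4.6% of all probes). Without Spp1 the sums overlapped, at 22508 to 23979 against 13338 to 29279. The fibroblast list summed to 90065 to 94265 against 74982 to 87348. Of its 10 probes, however, 4 were higher (12.8% of all probes) at an adjusted p below 0.05. At the same threshold 2, Postn and Fbln1, were lower (14% of all probes). Endothelial probes summed to 6723 to 8376 against 5133 to 6320. Of 7 mast cell probes, 3 were higher (12.8% of all probes) at an adjusted p below 0.05, namely Cma1, Cpa3 and the probe listed as Mcpt2, now Mcpt1. Kit was the 1 lower probe (14% of all probes), by a log2 difference of -0.90. Ms4a2, Tpsab1 and the probe listed as Mcpt1, now Vch, were not detected. The mast cell list summed to 317 to 439 against 278 to 303. Skeletal muscle and erythroid lists gave 0 probes called higher (4.6% of all probes). In the muscle list 1 probe, Actn3, was called lower (3.15% of all probes), by a log2 difference of -1.57. The part of these cells in the inhibitor changes was not tested, and in a bulk sample fewer cells of a type cannot be told apart from less RNA per cell. Of the hepatocyte and plasma markers, Alb, Ttr, Fgb and Ahsg were not detected on any array, while Tf (transferrin) was detected throughout and rose by 0.84 (adjusted p = 0.00032, limma), so that the list summed to 1880 to 2263 against 1020 to 1402.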

How the data were processed

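The authors hybridized 1 secretory-stage and 1 maturation-stage sample of each of 4 rats to 8 arrays of the RatRef BeadChip, with no pooling. They deposited each probe's mean bead intensity, neither background-corrected nor normalized, with a standard error of the bead signals, a detection p-value and the bead count of each probe (22 to 74 beads for the inhibitors). The bead summary software and genome build are not given in the sources used here. Signals summed to between 1.34e+07 and 1.61e+07 per maturation-stage array and 1.19e+07 to 1.2e+07 per secretory-stage array. The number of arrays limits the precision.

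Groups came from titles. R 4.3.3 and limma 3.58.1 were used: neqc (offset 16, quantile normalization, log2), its negative controls being inferred from detection p-values, then lmFit and eBayes without a filter on all 22523 probes. Folds of probes undetected on all arrays of a stage were also given as lower bounds, from the lowest detected signal of each array. Exact permutation tests used scipy 1.17.1. Permuting 4 against 4 arrays cannot give a two-sided p under 0.0286, which each of the 9 differentially expressed inhibitors had. On simulated arrays with independent noise, changes were put only into probes detected on all 8 arrays. There limma recovered 91 of 100 probes changed 2-fold and 97 of 100 changed 3-fold, with 0 false calls among the unchanged probes. Only 22 of the 66 inhibitor probes were detected on all 8 arrays. The recovery does not describe probes near background, such as those of A2m, Serpina3n and Cst7. Array values are given for the probes called, and the rest of those detected by their change. The values of 1 gene of the rule (2 probes, neither called) are not reported here, though its probes are in the counts. Current symbols and gene order came from a RefSeq gene table (GRCr8), which matched all 66 probes.

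Each rat gave both stages, so replicate numbers pair samples: deviations from the stage means correlated at 0.129 to 0.234 within a rat and at -0.0833 to -0.0426 on average between rats (11233 probes). The comparison was unpaired, as the methods do not state pairing. Alternatives were other background corrections, offset 50, median scaling, cyclic loess, a filter on detection, a Student test as in the methods, a block for the rat, an adjusted p of 0.01, lower bounds and each array left out. The members, gene lists and tests were chosen with earlier results of these data known. The removal of the fold threshold and the marker sum without Spp1 were chosen after seeing the data.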

Additional observations from a re-analysis of the deposited data

Results flagged for a closer look

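Array values far from the other 3 of their stage were seen in 4 of 70 sets of values, where chance gives about 3.5. Serpina10 read 5.86 on maturation array 3, against 5.53 to 5.57 on the others. Serpinb1a read 12.43 on maturation array 1, against 12.65 to 12.68. Serpini1 read 5.93 on secretory array 3, against 6.30 to 6.33. Cst3 read 13.66 on maturation array 1, against 13.27 to 13.33.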

How the results depend on the processing

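The 9 inhibitor probes higher in the maturation stage became 4 without background correction, which lost A2m, Cst7, Serpina3n, Serpinb8 and Wfdc1, and 15 without the fold threshold. With 1 array left out they numbered 8 to 11. The 0 lower probes became 7 without the fold threshold and 0 to 2 with 1 array left out (Serpinb12 without maturation array 1 or 4 or secretory array 2, and Cst6 without secretory array 2). With the rat as a replicate block the counts were 9 and 0, and no call past both thresholds changed among the inhibitors, while 17 were higher and 7 lower at an adjusted p below 0.05 alone, against 15 and 7 unpaired. The methods' Student test gave 9 and 0, both before and after Benjamini-Hochberg adjustment, and under it Cst3 (adjusted p = 0.0504), Tfpi2 (0.0901) and Serpini1 (0.0815) missed the adjusted threshold. An offset of 50 left 6 higher (without Cst7, Serpina3n and Serpinb8), normexp without negative controls 8 (without Serpinb8), and median scaling gave 11. Median scaling also moved the share of all calls that were higher from 59.3% to 77.6%, and under it Serpinb12 (adjusted p = 0.0859, limma), Serpinb5 (0.606), Tfpi (0.0691) and Serpini1 (0.232) missed the adjusted threshold.

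The other lists moved in places. The 1 lower serine protease became 0 without background correction. Cathepsins past both thresholds went from 4 to 8 under median scaling. The 2 higher inhibitors outside the rule became 0 with normexp without negative controls, without background correction or with an offset of 50, 1 under the Student test, and 1 to 2 with 1 array left out. The 2 higher partners became 1 without background correction and 4 under median scaling. The cause of these changes was not tested. Signals close to background limit A2m, Cst7, Serpina3n, Serpinb8, Serpinb2, Serpinb3, Tfpi2, Serpini1 and Serpinb6b probe ILMN_1375624. Across the alternative fits the change was as small as 0.29 for Tfpi2, -0.19 for Serpini1 and 0.18 for this Serpinb6b probe.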
